A study of Mus musculus with 3 samples.

Results

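The 9 genes described here encode nuclear receptor corepressors and coactivators, the proteins that DNA-bound nuclear receptors recruit to switch transcription off or on. They were taken by name from the GENCODE M1 annotation of the mouse NCBI37/mm9 genome, where they are 9 of 22367 protein-coding genes. Binding was measured by chromatin immunoprecipitation followed by sequencing (ChIP-seq) in liver of male wild type C57BL/6 mice aged 3 months. The 3 libraries were 1 precipitated with an antibody against retinoid x receptor alpha (RXRα), 1 of input chromatin that was not precipitated, and 1 precipitated with a Santa Cruz antibody (sc-551x) against retinoic acid receptor alpha (RARα). There was 1 library of each kind, so all values describe these libraries, no test between them was possible, and no variation between mice can be given. How many livers went into each library is not stated in the sources used here.

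RARα binds DNA as a heterodimer with RXRα, usually at direct repeats of a short half-site. Without retinoic acid the dimer holds a corepressor such as Ncor1 with its histone deacetylase. Ligand exchanges this for the p160 coactivators Ncoa1, Ncoa2 and Ncoa3, the acetyltransferase Ep300 and the Mediator complex. Med1 is the Mediator subunit that binds receptors with ligand. Ppargc1a and Ppargc1b are the PGC-1 coactivators of mitochondrial and fasting metabolism in liver, and Nrip1 is a corepressor that binds receptors carrying an agonist. Most nuclear receptors that pair with RXRα use the same set of coregulators, so the comparison made here asks whether the receptors were also found on the genes of their own coregulators.

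For RXRα and input, coverage by extended reads was given in bins of 32 bp. It corresponded to 9999939 reads for RXRα and 9999292 reads for input, with a mean of 0.603 input reads per bin. A read extended over 5 bins, so a read that lay partly in a window counts there as a fraction. An RXRα region is a run of bins that held 20 or more times as much RXRα as input, where the input was never taken as less than the genome mean. This takes at least 13 RXRα reads in a bin without input and 21 in a bin with 1 input read. The highest bin of a region or window is here the bin with the highest ratio, which need not hold the most reads. The reads and ratio given for a region are those of this bin, and where it held 0 input reads the ratio is one to the genome mean and not to local input. For RARα only a list of peaks with scores was used, and the depth of that library is unknown from the list. RARα peaks are those of score above 20 unless stated, and a site is called co-localized where a RARα peak and an RXRα region overlapped by at least 25% of the narrower. Intervals are 95% intervals (exact Poisson for the reads of 1 bin, Clopper-Pearson for ratios of reads). They cover counting error only and take reads as independent. Sequenced PCR products are not independent molecules, so the intervals may be too narrow. The interval of a bin also does not allow for its choice as the highest.

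The liver label was checked on binding, since no expression was measured. The hepatocyte genes Alb, Apoa1, Ttr and Tat were co-localized within 10 kb of the gene start in 4 of 4 cases. Of 8 markers of stellate, Kupffer, endothelial and bile duct cells 1 was, and of 4 markers of other tissues (Gfap, Neurod1, Myod1 and Cd3e) 0 were. Over all genes the share was 23.5%, and with so few markers the counts of 1 and 0 cannot be told apart from it. Gfap, which stellate cells also use, had a RARα peak of score 27 and an RXRα region of ratio 23.2 that did not overlap. Whole liver was used, and the cell type in which a coregulator gene was bound cannot be told from these libraries.

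Within 10 kb of the gene start, 7 of the 9 coregulator genes had a RARα peak, against 52.2% of all genes. An RXRα region was present in 5 of 9, against 39.8%, and a co-localized site in 4 of 9, against 23.5%. The co-localized genes were Nrip1, Ncoa2, Ncoa3 and Ppargc1b. Ncor1 and Ep300 had RARα peaks without an RXRα region, Med1 had both at different positions, and Ncoa1 and Ppargc1a had neither. When any start of a protein-coding transcript was used, Ppargc1a joined each count, giving 8 of 9 genes with a RARα peak (53.9% of all genes), 6 with an RXRα region (41.8%) and 5 with a co-localized site (24.7%). Of the 9 gene starts, 7 were rich in CpG dinucleotides (observed over expected above 0.6 in 300 bp), against 45.1% of all genes. Whether this bears on the counts was not tested. With 9 genes and 1 library these counts are a description. They also moved with the threshold, since the co-localized genes numbered 7 when RXRα was set against the genome mean alone and 2 when regions with fewer than 20 reads in the highest bin were left out, a setting chosen after seeing the data.

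In the gene body beyond 10 kb, 6 of 9 genes had a RARα peak, against 27.2% of the 13506 genes with such a body. An RXRα region was present in 7 of 9, against 33.3%, and a co-localized site in 3 of 9, against 11.3%. The coregulator genes are long, with a median of 102 kb against 15.4 kb for all genes, and a long body holds more sites. Among the 5762 genes whose body beyond 10 kb was at least as long as that of Med1, the shortest here at 31.1 kb, 44.0% had a RARα peak, 53.5% an RXRα region and 18.9% a co-localized site. Per 100 kb of body, the 9 genes together held 3.84 RXRα regions, 1.77 RARα peaks and 0.887 co-localized peaks. All genes together held 1.82, 1.06 and 0.337. Ppargc1b held 5 of the 9 co-localized body peaks, some of them abutting, and without it the values were 3.14, 1.19 and 0.434.

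**Figure D1:**
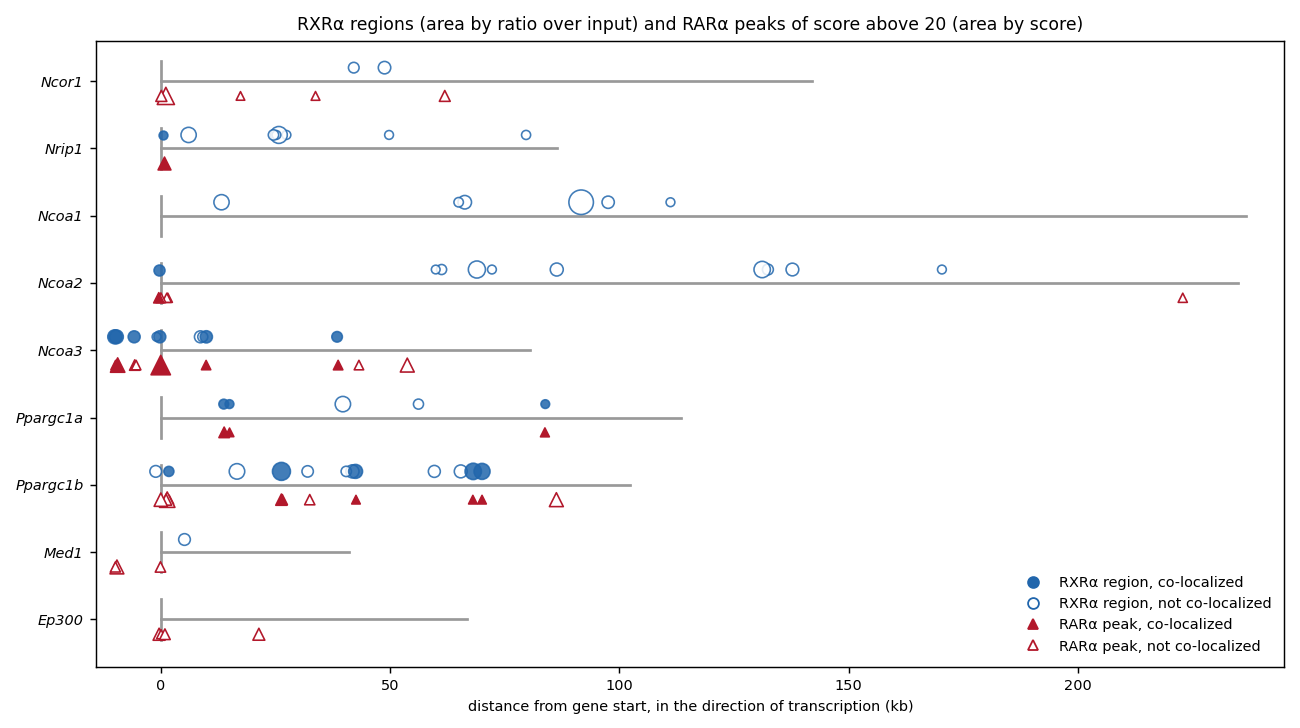
Positions of RXRα regions (blue circles, area by ratio over input) and RARα peaks of score above 20 (red triangles, area by score) in the 9 coregulator genes, on an axis of distance from the gene start in kb; grey lines are the genes, filled symbols are co-localized and open symbols are not. Filled symbols lie in Nrip1, Ncoa2, Ncoa3, Ppargc1a and Ppargc1b, and the RXRα regions of Ncoa1 are all open.

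In all, 41 RARα peaks were assigned to the 9 genes, 23 within 10 kb and 18 in the bodies. Of these, 16 were co-localized (39.0%, against 32.2% of all 32946 RARα peaks of score above 20). Their median score was 33, as for all peaks, and their median RXRα enrichment over input was 6.11, against 4.16. The summit lay within 500 bp of a start of a coding transcript of the gene in 14 of them (34.1%, against 36.7% over all genes). The strongest peak of the gene did so in 6 of the 8 genes with a peak, against 56.3% of all genes with a peak. Abutting RARα peaks were counted separately and formed 8 joined runs. Merged, Ppargc1b had 8 peaks and not 11, Ncoa3 7 and not 9, and Ncoa2 3 and not 5. Ep300 had 2 and not 4, and Med1 2 and not 3. The numbers of genes with a RARα peak within 10 kb or with a co-localized site did not change. RXRα gave 53 regions, 14 within 10 kb and 39 in the bodies, and 45 of them were intronic. A RARα peak overlapped 16 of the 53 (30.2%, against 25.1% of all 42117 RXRα regions). A listed RARα peak of any score overlapped 28 of them (52.8%, against 53.3%), so the shares with RARα were near those of the genome. Of the sites in the windows and bodies, those within 10 kb of the gene start were 56.1% of the RARα peaks and 26.4% of the RXRα regions. Over the 5762 genes with a body of at least 31.1 kb they were 45.3% and 27.9%, so the lower share for RXRα was also that of long genes in general.

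**Figure D2:**
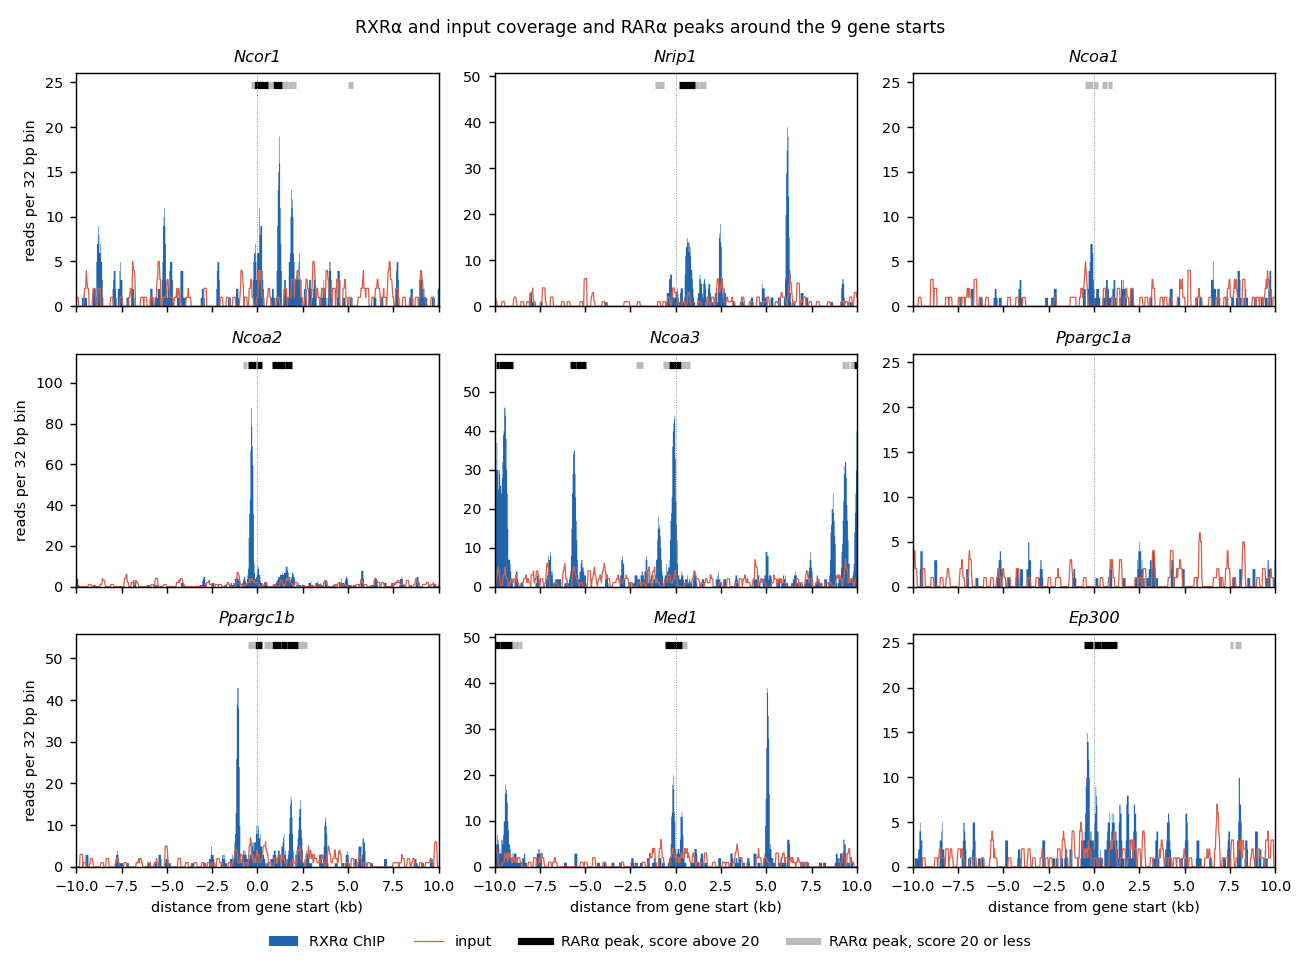
Coverage of RXRα (blue) and input (red line) in reads per 32 bp bin over 10 kb on each side of the 9 gene starts, with distance from the gene start in kb; bars at the top are RARα peaks of score above 20 (black) and of 20 or less (grey), and each panel has its own vertical scale. In reads, though not in ratio to input, the highest RXRα bins lie just upstream of Ncoa2. Ppargc1a has neither an RXRα region nor a listed RARα peak in its window.

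Ncor1, the corepressor that carries histone deacetylase activity to receptors without ligand, had strong RARα binding at its start and no RXRα region there. The gene (ENSMUSG00000018501.10) lies on chromosome 11 from 62129928 to 62272043 on the minus strand and has 16 annotated starts of coding transcripts. The strongest RARα peak, chr11:62270701-62271191, had a score of 106 in an intron of the longest model, and its summit lay 51 bp upstream of the start shared by Ncor1-001 and 5 other transcripts. Across this peak RXRα had 20.8 reads and input 1.0, and the highest bin had 19 reads against 1, a ratio of 19.0 that fell just below the threshold of 20. A weaker RARα peak of score 39 lay 173 bp downstream of the gene start, with 20.2 RXRα and 5.2 input reads. Pigl, the gene of an enzyme of membrane anchor synthesis on the opposite strand, starts 256 bp away, so both peaks may belong to either gene and this cannot be told apart. In the 10 kb window RXRα had 185 reads and input 129, a ratio of 1.43 (1.14 to 1.81).

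Inside Ncor1 no RARα peak was co-localized with an RXRα region at the thresholds used. RARα peaks of score 21, 22 and 38 lay 17.4, 33.8 and 62.0 kb from the start. At the first of them RXRα reached 32 reads against 2 in its highest bin, below the threshold, and at the last RXRα had 2.4 reads against 5.6 in input. The 2 RXRα regions lay 42.1 kb (19 reads against 0) and 48.8 kb (26 reads against 0, 16.98 to 38.1) from the start, the second under listed RARα peaks of score 8 and 14. Over the body RXRα and input were level, at 810.2 and 783 reads (ratio 1.03, 0.936 to 1.14).

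Nrip1, the corepressor that binds receptors with agonist and whose gene is known to be induced by retinoic acid in several cell types, was co-localized at its start. The gene (ENSMUSG00000048490.7) lies on chromosome 16 from 76287645 to 76374072 on the minus strand. Its only RARα peak, chr16:76373021-76373910, had a score of 56, with its summit 762 bp into the gene and 16 bp from the start of the transcript Nrip1-003. Across it RXRα had 38.4 reads and input 4.0, an enrichment of 9.60 (3.42 to 36.6). The RXRα region beneath it had 13 reads in its highest bin (6.92 to 22.2) against 0, the fewest that a region can have. The annotated gene start had few CpG dinucleotides (observed over expected 0.289 in 300 bp), while the start of Nrip1-003 was rich in them (1.03), and the bound start was the second. The sequence of the co-localized site (chr16:76373389-76373589, NCBI37, minus strand, intron) is shown because none of the 4 half-site forms searched here occurs in it, so no letter is in capitals.
Nrip1 co-localized site: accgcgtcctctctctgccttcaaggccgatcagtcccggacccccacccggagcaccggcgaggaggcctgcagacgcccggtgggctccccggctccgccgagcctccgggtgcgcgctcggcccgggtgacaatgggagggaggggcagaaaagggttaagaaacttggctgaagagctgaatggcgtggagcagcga

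The larger RXRα signals of Nrip1 lay away from its RARα peak of score above 20. An intronic region at 6.12 kb had 39 reads (27.7 to 53.3) against 0 in input and no listed RARα peak over it. A group of 4 regions followed between 24.6 and 27.4 kb, with 30, 13, 48 and 22 reads in order of distance against 1, 0, 0 and 1, and only the strongest of them, 576 bp wide, was under a listed RARα peak, of score 17. The other 2 regions lay at 49.8 kb and, in the coding exon, at 79.7 kb, with 13 and 23 reads. Over the body RXRα had 920 reads against 425 in input, a ratio of 2.16 (1.93 to 2.43) that exceeded 90.6% of genes.

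Ncoa1 is the first of the p160 coactivators, which bind receptors with ligand and bring in acetyltransferases. It had RXRα regions and no RARα peak of score above 20. The gene (ENSMUSG00000020647.8) spans 237 kb of chromosome 12, from 4247363 to 4484060 on the minus strand. Around its CpG-rich start (observed over expected 1.04) RXRα had 74.0 reads against 79.8 within 10 kb, and its highest bin relative to input had 7 reads. Within 1 kb RXRα was above input, with 21.0 reads against 9.2, a ratio of 2.28 (1.02 to 5.79). The listed RARα peaks there had scores of 8, 11, 17 and 20, the last just short of the threshold, which takes scores above 20. All 6 RXRα regions were intronic, between 13.3 and 111 kb from the start. Their highest bins had 39, 15, 51, 101, 42 and 13 reads in order of distance, against 0 or 1 in input.

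The Ncoa1 region at 91.7 kb was the strongest RXRα region of the 9 genes. Its highest bin had 101 reads (82.3 to 123) against 0 in input, and its ratio of 168 exceeded that of 98.8% of all RXRα regions. A listed RARα peak of score 5 touched it by less than the overlap required, and another of score 20 had its summit within 500 bp. The window of 201 bp at this region (chr12:4392237-4392437, NCBI37, minus strand, intron) was chosen for printing after its values were seen. It holds 4 half-sites, and the capitals mark a direct repeat with a spacing of 5 (DR5, the spacing classed with RXRα and RARα) in which 1 of the half-sites has 1 mismatch to the forms searched.
Ncoa1 strongest RXRα region: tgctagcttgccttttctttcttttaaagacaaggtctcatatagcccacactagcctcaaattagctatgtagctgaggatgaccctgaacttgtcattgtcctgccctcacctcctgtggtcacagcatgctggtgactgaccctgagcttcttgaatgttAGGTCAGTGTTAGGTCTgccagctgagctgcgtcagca

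Ncoa2, the p160 coactivator that in liver also serves the glucocorticoid receptor, had the highest RXRα ratio at its start among the 9 genes. The gene (ENSMUSG00000005886.8) spans 235 kb of chromosome 1, from 13129186 to 13364164 on the minus strand. Within 1 kb of the start RXRα had 130 reads against 15.0, a ratio of 8.67 (5.06 to 15.9) against a median of 1.37 for all genes. Ncoa3 followed closely at 7.61 (4.38 to 13.9), and these intervals overlapped. The Ncoa2 region 364 bp upstream had 67 reads (51.9 to 85.1) against 2 in its highest bin, a ratio of 33.5. The RARα peak over it, chr1:13364221-13364701, had a score of 33, and its summit lay 17 bp from the middle of the region. The other RARα peaks in the window had scores of 29 at 74 bp and of 25 and 25 near the start of Ncoa2-001, 1.64 kb downstream. Across these last peaks RXRα had 17.6 reads against 4.2 and 15.6 against 6.2, with no region. The sequence of the co-localized site (chr1:13364461-13364661, NCBI37, minus strand, upstream of the gene) has 1 half-site, in capitals.
Ncoa2 co-localized site: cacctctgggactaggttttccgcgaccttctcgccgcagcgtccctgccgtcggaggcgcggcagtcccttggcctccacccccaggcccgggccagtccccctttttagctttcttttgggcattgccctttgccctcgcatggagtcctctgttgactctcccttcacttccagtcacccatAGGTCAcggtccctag

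In the introns of Ncoa2, 9 more RXRα regions lay between 59.99 and 170 kb from the start, and none was co-localized. Their highest bins had 13 to 49 reads against 0 or 1, the most at 69.0 kb (36.3 to 64.8). Of the 9, 5 were overlapped by a listed RARα peak, with scores of 11 to 18, all below the threshold. The single RARα peak of score above 20 in the body, 223 kb from the start, had a score of 25 and 1.0 read in both RXRα and input. The region at 59.99 kb, with 21 reads against 1, was the one among the 53 RXRα regions with an exact direct repeat in its window. It was printed for that reason after the motif search (chr1:13304077-13304277, NCBI37, minus strand, intron). The capitals mark the repeat, which has a spacing of 1 (DR1, the spacing classed with RXRα and PPARα) and reads on the opposite strand of the printed one.
Ncoa2 intronic region with DR1: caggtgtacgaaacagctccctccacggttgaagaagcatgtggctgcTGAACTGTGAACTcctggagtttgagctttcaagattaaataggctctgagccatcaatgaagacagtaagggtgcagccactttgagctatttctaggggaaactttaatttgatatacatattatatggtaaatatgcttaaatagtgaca

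Ncoa3, the p160 coactivator first known for its amplification in breast cancer, was the gene with the most binding by both receptors around its start. The gene (ENSMUSG00000027678.10) lies on chromosome 2 from 165818136 to 165898742 on the plus strand. Within 10 kb it had 6 RARα peaks and 8 RXRα regions, and 4 of the peaks were co-localized. RXRα had 585 reads against 176 in the window, a ratio of 3.31 (2.80 to 3.96) that exceeded 93.1% of genes. The RARα peak at the start, chr2:165817791-165818411, had a score of 137, the highest of the 41 and above 98.9% of all such peaks. Under it RXRα had 75.4 reads against 6.0 and a region of 40 reads (28.6 to 54.5) against 1 in the highest bin.

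The other co-localized sites of Ncoa3 lay upstream and in introns. RARα peaks of score 72 at 9.35 kb and 34 at 5.63 kb upstream had RXRα enrichments of 13.0 (6.36 to 30.9) and 9.04 (3.65 to 24.2). A peak of score 26 at 9.93 kb downstream had 51.0 RXRα reads against 2.0, an enrichment of 25.5 (6.71 to 216), and one of score 27 at 38.7 kb had 92.0 against 10.4. The 3 regions without a RARα peak of score above 20 had 13, 24 and 17 reads, at 872 bp upstream and at 8.70 and 9.21 kb downstream. A strong RARα peak of score 67 at 53.8 kb had 25.8 RXRα reads against 6.8 and no region. The region of the highest ratio, 54.8 (33 reads against 0), lay 9.98 kb upstream under a RARα peak of score 34 whose summit is beyond 10 kb. Its sequence (chr2:165808077-165808277, NCBI37, plus strand, upstream of the gene) is shown as the strongest co-localized site outside untranslated regions, and it holds none of the half-site forms, so no letter is in capitals.
Ncoa3 co-localized site: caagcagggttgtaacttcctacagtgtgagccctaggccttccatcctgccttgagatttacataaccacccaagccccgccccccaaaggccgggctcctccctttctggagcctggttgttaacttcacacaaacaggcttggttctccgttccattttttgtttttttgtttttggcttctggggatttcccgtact

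Ppargc1a, which drives gluconeogenesis and mitochondrial genes in the fasted liver, had no binding around its annotated gene start. The gene (ENSMUSG00000029167.7) lies on chromosome 5 from 51845488 to 51958964 on the minus strand. Within 10 kb of its start RXRα had 67.8 reads against 86.6, a ratio of 0.783 (0.561 to 1.09), the highest RXRα bin relative to input had 4 reads, and the RARα list held 0 peaks of any score. At the start of Ppargc1a-001, 13.8 kb downstream, binding of both receptors was found. A RARα peak of score 35, chr5:51944691-51945400, had its summit 65 bp into this transcript and covered an RXRα region of 16 reads (9.15 to 26.0) against 0. Both starts were poor in CpG dinucleotides, at 0.282 and 0.169 observed over expected, and expression from either start was not measured.

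A further co-localized site of Ppargc1a lay 15.0 kb from the gene start, with a RARα score of 21 and an RXRα region of 43 reads (31.1 to 57.9) against 2. Another lay at 83.9 kb, with a score of 23 and 21 reads against 1. The strongest RXRα region, at 39.7 kb, had 66 reads (51.0 to 84.0) against 1 and lay under listed RARα peaks of score 16 and 15, below the threshold. A region at 56.2 kb had 17 reads against 0 and no RARα peak. Both RARα scores of 21 and 23 were close to the threshold of 20. The site at 15.0 kb is printed because the window of the stronger co-localized site touches an untranslated region. The printed sequence (chr5:51943821-51944021, NCBI37, minus strand, intron) has 1 half-site, in capitals.
Ppargc1a co-localized site: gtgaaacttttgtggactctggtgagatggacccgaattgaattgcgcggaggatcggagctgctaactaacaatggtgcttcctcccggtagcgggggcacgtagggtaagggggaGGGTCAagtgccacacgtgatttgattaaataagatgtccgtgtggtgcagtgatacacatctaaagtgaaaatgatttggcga

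Ppargc1b, the PGC-1 coactivator that supports lipid synthesis and mitochondrial genes, had the most RARα peaks, the most RXRα regions and the highest RXRα level over its body. The gene (ENSMUSG00000033871.8) lies on chromosome 18 from 61457790 to 61560085 on the minus strand. It had 11 RARα peaks and 12 RXRα regions in all, and over the body RXRα had 1619.6 reads against 562, a ratio of 2.88 (2.62 to 3.18) that exceeded 95.1% of genes. Around the start 4 RARα peaks had scores of 61 at 60 bp, 40 at 1.21 kb, 84 at 1.45 kb and 23 at 1.89 kb. Only the last and weakest was co-localized, with a region of 17 reads against 0, and across the strongest RXRα had 9.2 reads against 3.0. A region 1.05 kb upstream had 38 reads (26.9 to 52.2) against 1 without a listed RARα peak.

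The strongest shared binding of Ppargc1b was intronic. At 26.4 kb an RXRα region 512 bp wide reached 90 reads (72.4 to 111) against 1 and lay under abutting RARα peaks of score 32 and 41. A further 3 RARα peaks in the introns, each of score 21, had RXRα enrichments of 15.0 (42.6 kb), 23.0 (68.1 kb) and 44.8 (70.1 kb, 108 reads against 2.4, 14.6 to 452), the last being the highest of the 41. The other body regions, without a RARα peak of score above 20, had 18 to 67 reads in their highest bins. A RARα peak of score 67 at 86.3 kb had 9.0 RXRα reads against 2.6, and one of score 33 at 32.5 kb had 30.8 against 12.2. In this gene the 3 RARα peaks of highest score had RXRα enrichments of 3.07 to 3.46, while the 5 of highest enrichment, 13.9 to 44.8, had scores from 21 to 41.

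Med1, the Mediator subunit that binds receptors with ligand, had its RARα peaks and its RXRα region at different positions. RXRα was still above input across the RARα peak at the gene start, below the threshold for a region. The gene (ENSMUSG00000018160.9) lies on chromosome 11 from 98013468 to 98054607 on the minus strand. A RARα peak of score 34 had its summit 23 bp upstream of the gene start, and across it RXRα had 36.0 reads against 8.8, an enrichment of 4.09 (1.89 to 9.44) without a region. Its only RXRα region, intronic at 5.09 kb, had 38 reads (26.9 to 52.2) against 1 and no listed RARα peak over it. RARα peaks of score 66 and 32 lay 9.51 and 9.84 kb upstream, at the start of Cdk12, a kinase gene on the opposite strand that starts 9766 bp away, and these are nearer to Cdk12 than to Med1. Over the body RXRα had 101 reads against 165, a ratio of 0.613 (0.473 to 0.789), below the median of 0.721 for all genes.

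Ep300, the acetyltransferase that p160 coactivators recruit, had RARα peaks and no RXRα region at all. The gene (ENSMUSG00000055024.5) lies on chromosome 15 from 81415781 to 81482507 on the plus strand. RARα peaks of score 48, 24 and 36 followed one another over its start, at 316 bp upstream and at 119 and 954 bp downstream. Across them RXRα had 23.4, 10.2 and 18.2 reads against 4.4, 1.6 and 7.4, and its highest bin had 14 reads against 1. A RARα peak of score 47 in an intron at 21.4 kb had 1.2 RXRα reads against 4.8 in input, an enrichment of 0.250 that was the lowest of the 41 peaks. Over the body RXRα had 198 reads against 305 (ratio 0.650, 0.540 to 0.779).

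**Figure D3:**
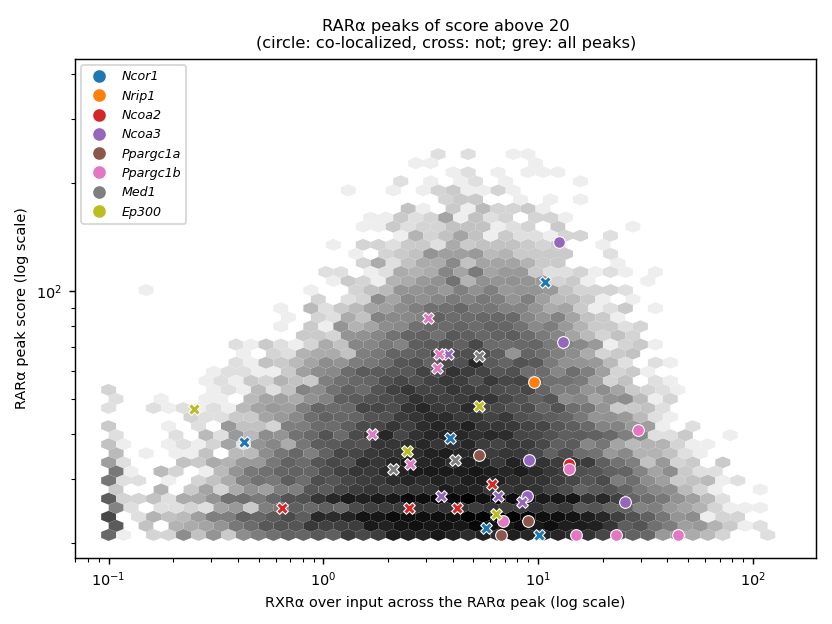
RARα peak score against RXRα over input reads across the same peak, both on log scales, for the 41 peaks in 8 coregulator genes (coloured; circles co-localized, crosses not) over all RARα peaks of score above 20 (grey, darker where there are more; ratios under 0.1 are drawn at 0.1). Ncoa1 has no such peak. The Ppargc1b peak of enrichment 44.8 has a score of 21, and the Ep300 peak of score 47 has an enrichment of 0.250.

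Across the 9 genes, the ratio of RXRα to input within 10 kb had a median of 1.64, against 0.990 for all genes, and was above 1 in 7 genes, against 49.5% of all genes. The order was Ncoa3 (3.31), Ncoa2 (2.29), Med1 (1.94), Ppargc1b (1.66), Nrip1 (1.64), Ncor1 (1.43), Ep300 (1.39), Ncoa1 (0.927) and Ppargc1a (0.783). Each pair of neighbours in this order had overlapping counting intervals. In the body the order differed. Ppargc1b (2.88) stood clear of Nrip1 (2.16), and Nrip1 of Ncoa3 (1.58), by their counting intervals, while Ncoa3, Ppargc1a (1.42), Ncoa2 (1.28), Ncoa1 (1.13) and Ncor1 (1.03) each overlapped the next. Ep300 (0.650) and Med1 (0.613) were below 1 and below Ncor1. The median over the bodies was 1.28, against 0.721 for all genes.

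**Figure D4:**
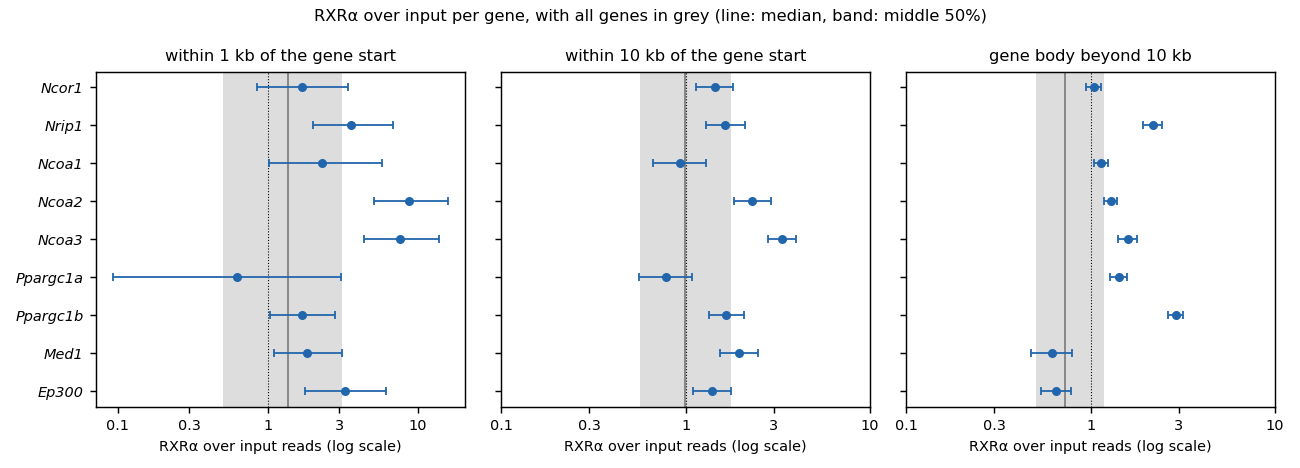
Ratio of RXRα to input reads (log scale) for each coregulator gene within 1 kb of the gene start, within 10 kb, and in the body beyond 10 kb, with 95% counting intervals as bars; the grey line and band are the median and the middle 50% of all genes, and the dotted line is 1. Ncoa2 and Ncoa3 stand highest at the start, and Ppargc1b and Nrip1 in the body.

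Other genes of the same complexes were read in the same way from a list of 37. Within 10 kb, 33 had a RARα peak (against 52.2% of all genes) and 25 an RXRα region (against 39.8%). A co-localized site was present in 14 (37.8%, against 23.5% of all genes and 4 of the 9 genes above). Of 12 genes of corepressor complexes 11 had a RARα peak, 8 an RXRα region and 4 a co-localized site. For 13 coactivator genes the counts were 12, 9 and 7, and for 12 Mediator genes 10, 8 and 3. The co-localized shares of these lists were 33.3%, 53.8% and 25%, the last near that of all genes. Gps2, a subunit of the complex built on Ncor1, had the highest RARα score among the corepressor genes, 77 at 7.91 kb. Cited2, which binds Ep300 and Crebbp, had the highest RARα score among the coactivators, 195 at 11 bp, and the RXRα region of the highest ratio, 74.0 (74 reads against 1), at 842 bp upstream. Smarcd1, a subunit of a chromatin remodelling complex that is named here after its values were seen, had more reads in its region (145 against 3) at a ratio of 48.3, and a higher ratio over the window, 4.92 against 3.75 for Cited2. In Mediator the highest RARα score was 131 at Med23, and the highest RXRα ratio was 44.8 (27 reads against 0), 7.08 kb upstream of the kinase gene Cdk8.

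The sequences under the sites were searched for nuclear receptor half-sites in windows of 201 bp around the highest bin of each RXRα region and around each RARα summit. The half-site was AGGTCA on either strand. The form AGTTCA was also counted. So was GGGTCA, as the next form. The last form counted was GGTTCA. Direct repeats had both half-sites in one direction with 1 to 5 bases between them. A half-site occurred in 54.7% of the 53 RXRα regions, against 64.8% of all RXRα regions, and in 41.5% of the 41 RARα peaks, against 36.1% of all RARα peaks and 28.0% of all gene starts. An exact direct repeat occurred in 1 of the 53 regions (1.89%, against 2.98% of all), the Ncoa2 intronic region whose sequence is given, and in 0 of the 41 RARα peaks, against 0.677%. With 1 mismatch allowed in 1 of the half-sites, a direct repeat occurred in 22.6% of the regions, against 23.4% of all, and in 7.32% of the RARα peaks, against 8.50% of all. An inverted repeat with 1 base between the half-sites (IR1, the form classed with FXR) occurred in 1 region, in Ncoa1 at 111 kb, against 0.354% of all regions. The motif content of the sites in coregulator genes was thus within a few percentage points of the genome's for repeats, and a match shows only that the letters are present.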

How the data were processed

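ChIP was performed on mouse liver with antibodies against RXRα or RARα. Per the study's methods, reads were aligned with Bowtie and peaks called with MACS (CASAVA version 1.4 per the labels). The authors deposited RXRα and input as a signal, namely whole-number coverage by extended reads in 32 bp bins (mm9 in the file headers). The step that made it is not given in the sources used here, and both tracks correspond to nearly the same number of reads (9999939 and 9999292), fewer for RXRα than the mapped reads the study states. For RARα the authors deposited a score and a false discovery rate in percent per peak, and the latter was not used. What the score measures is not stated. The methods name mm10 for alignment, but headers and coordinates match NCBI37/mm9, which was used with GENCODE M1.

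Both signals were scaled to the same mean (factor 0.999935). Bins with RXRα at least 20 times input, at least the mean input, were joined within 200 bp. The score above 20, the 20-fold cut off, 10 kb and 25% overlap follow the methods. The RXRα regions were called here on bins of the signal and are not the peaks that the study called with MACS. The scaling, the joining, the mean as the least input and the overlap as a share of the narrower interval were chosen here. Enrichment at a peak is the RXRα over input reads across it, with input at least the genome mean. Regions and overlaps were tested on simulated data. The 9 genes, the gene lists and the markers were chosen with earlier results of these data known. Named genes are the 9 and, per list of other coregulators, those with the highest RXRα region and RARα score within 10 kb. A result that this rule names is not reported here. Sequences printed are those of the strongest co-localized sites whose window touched no untranslated region, in 4 genes. A further 2 were chosen after their values were seen. Chromosome 18 was left out of the printing by rule, so no site of Ppargc1b was eligible. No p-values were computed, as there was 1 library per antibody. Computations used scipy 1.17.1, numpy 2.4.6, pysam 0.24.0 and pandas 2.3.3 in Python 3.11.15, and plots used matplotlib 3.10.9. Alternatives were other thresholds, windows, scalings, overlaps and transcript starts.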

Additional observations from a re-analysis of the deposited data

How the results depend on the processing

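Of the counts over genes and the median ratio, 50 values under other settings stayed near the value reported and 15 moved. The label near was loose. It took in 4 co-localized genes becoming 6 at 10 times input, and 14 of the 37 other coregulators becoming 19 without a RARα score threshold. Co-localized genes within 10 kb, 4 of 9 as reported, numbered 2 at a RARα score above 50, 2 at 30 times input, 7 against the mean input alone, and 2 both with the input also averaged over 1 kb and with at least 20 reads in the highest bin, the last 2 settings being chosen after seeing the data. In the gene body the 3 genes became 6 without a score threshold, 0 above a score of 50 and 1 with the averaged input. Genes with an RXRα region within 10 kb, 5 as reported, numbered 8 at 10 times input and 3 within 1 kb. For the 37 other coregulator genes the 14 became 5 above a score of 50, 26 at 10 times input, 6 at 30 times and 23 against the mean input. The median ratio of RXRα to input rose from 1.64 to 2.28 in a window of 1 kb. Ncoa1 went from below 1 to above it, at 1.24 within 5 kb and 2.28 within 1 kb, and Ppargc1a to 1.05 within 5 kb. The cause was not tested, beyond fewer or more bins passing by construction.

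The 53 RXRα regions became 25 with the averaged input (0 in Ncor1, 2 in Nrip1, 1 in Ppargc1a, 9 in Ppargc1b) and 38 with at least 20 reads. Leaving out the mitochondrial chromosome, 3.64% of input and 0.261% of RXRα, moved every log2 ratio by -0.05. No paired analysis was possible because there was 1 library of each kind. Under 20 reads in the highest bin stood behind 15 of the 53 regions (28.3%, against 29.3% of all RXRα regions), and what a deeper library would give was not tested.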
